A study of Mus musculus with 20 samples.

Results

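Lungs of 5 mice kept on flaxseed without radiation were set against lungs of 5 untreated mice, 10 of the 20 mice in the series. Membership came from the treatment label of each mouse and from no measured value. All mice were C57BL/6, an inbred laboratory strain. The flaxseed group ate food with 10% flaxseed over 21 days and received no radiation, and the untreated group had neither diet nor radiation. The other 10 mice, used here for the shared normalisation and spread and to compare the diet difference after radiation, received 13.5 Gy to the thorax 48 h before sacrifice, 5 of them after the same diet. The labels give no sex, age, control diet or housing, and each mouse carries its own number, so the replicates are separate animals.

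Flaxseed is the seed of Linum usitatissimum. It is rich in the omega-3 fatty acid alpha-linolenic acid, in fibre and in lignans, plant phenols that gut bacteria convert to enterodiol and enterolactone. The lung is exposed to inhaled oxidants, and diets with flaxseed have been studied in mice for protection of this organ from oxidative and radiation injury. The comparison without radiation addresses what the diet alone changed.

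Each lung RNA sample was labelled with 33P, a radioactive isotope, and hybridised to 1 array of 9600 spots. A spot is a dot of fixed DNA whose brightness follows the amount of matching RNA. In whole lung, fewer cells of a type and less RNA per cell cannot be told apart. Spots carry running numbers and the files used here pair none of them with a gene, so the lung identity of the samples was not checked against marker genes, and no pathway or gene family could be counted. Spots are described below by their number, level and place.

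Array brightness was compared first. The median signal minus local background was 158, 179, 158, 184 and 180 in flaxseed replicates 1 to 5, and 177, 98.5, 111, 105 and 111 in untreated replicates 1 to 5. Untreated replicate 1 lay within the flaxseed range, and the other 4 untreated arrays lay below all 5 flaxseed arrays. The difference of 51.5 units did not pass the threshold after adjustment over 4 measures (exact two-sided permutation p = 0.0238, adjusted p = 0.0952; the smallest p possible is 0.00794). It was 65.6 without untreated replicate 1 (exact permutation, adjusted p = 0.0317). Median local background was 30.8 ± 2.71 on flaxseed and 26.3 ± 3.60 in untreated mice (SD, n = 5; exact permutation p = 0.0714, adjusted p = 0.143). The interquartile range of the log2 signals was 1.68 ± 0.040 and 1.62 ± 0.089 (SD, n = 5; exact permutation p = 0.206, adjusted p = 0.275), and 98.1% and 98.2% of spots were brighter than their background (exact permutation p = 0.611 before and after adjustment). Without untreated replicate 1 the local background and the interquartile range also passed (exact permutation, adjusted p = 0.0317 for each). Signals were afterwards brought to a common distribution on all arrays. On the resulting log2 levels, correlations between arrays were 0.974 to 0.978 within the untreated group, 0.957 to 0.980 within the flaxseed group and 0.951 to 0.979 between the groups. The median SD of a spot over 5 mice was 0.21 on flaxseed, against 0.18 in each of the other 3 groups.

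**Figure D1:**
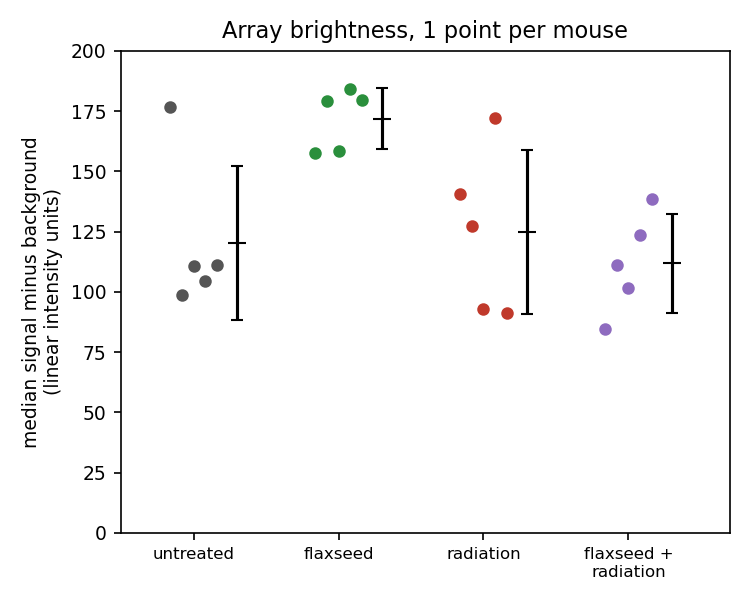
Median signal minus local background of each array, in linear intensity units, by treatment group; points are mice in replicate order and bars are the mean ± SD of 5 mice. The flaxseed arrays lie between 158 and 184, and 1 untreated array at 177 lies among them.

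After normalisation most spots differed little between the diets. Over all 9600 spots the flaxseed minus untreated difference had a median of 0.01 on the log2 scale, and the central 90% of spots lay between -0.36 and 0.33. Because all arrays were brought to a common distribution, a centre near 0 is largely built in. With scaling to the 75th percentile instead, the median was -0.05. In the limma fit to all 20 arrays, 12 spots were higher and 29 lower on flaxseed at an adjusted p under 0.05, together 0.427% of the spots tested (0.125% higher, 0.302% lower). The called increases ranged from 0.37 to 0.77 on the log2 scale with a median of 0.52, a 1.44-fold change. The called decreases ranged from -1.57 to -0.44 with a median of -0.68, a 1.60-fold change. The standard error of a difference had a median of 0.13 among called spots and 0.13 among all spots, and the median size of a difference was 0.62 and 0.11 in the same order. An unadjusted p under 0.05 was reached by 1235 spots, 12.9% of those tested. They split nearly evenly into 624 higher (6.5%) and 611 lower (6.36%), a balance that the common distribution favours.

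The number of called spots depended on single mice. Among untreated mice, the count became 5 when replicate 1 was left out, 26 when replicate 4 was and 13 when replicate 5 was. Among mice on flaxseed, it became 10 when replicate 1 was left out, 24 when replicate 2 was and 103 when replicate 5 was. Leaving out an irradiated array changed only the shared spread, and moved the count both ways. The count became 27 without radiation replicate 1, 61 without radiation replicate 2 and 53 without replicate 5 of the mice given both treatments. With only the untreated and flaxseed arrays in the fit, 1 spot was called (limma, adjusted p under 0.05), with 1100 spots at an unadjusted p under 0.05. Scaling to the 75th percentile gave 15 higher and 93 lower, and the authors' table gave 14 higher and 89 lower, so that 86.1% and 86.4% of the called spots were lower against 70.7% in the main setting. The balance turned when flaxseed replicate 4 was left out, with 18 higher and 13 lower (41.9% lower), and with array weights it was 19 higher and 23 lower. Flaxseed replicate 4 had the lowest mean correlation with the arrays of its group, 0.960, against 0.971 to 0.973 for the other flaxseed arrays. Whether this array differed for a technical reason was not tested. With array brightness as a covariate, 11 spots were higher and 15 lower, and 15 of these 26 were among the 41.

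With the spots ranked by mean level and cut into 4 sets of 2400, the dimmest set held 0 called spots. The set above it held 6 higher and 6 lower spots, the next 4 and 8, and the brightest 2 and 15. From the dimmest set to the brightest, 133, 252, 310 and 540 spots had an unadjusted p under 0.05 (limma). The median differences were 0.01, 0.02, 0.01 and -0.02 in the same order. Those called higher had a median level of 7.60 and those called lower a median of 8.56, beside 7.56 for all spots. The groups were fully separated, with no overlap between the 5 flaxseed and 5 untreated values, in 10 of the 12 spots called higher and in 25 of the 29 called lower. Full separation was seen in 1.08% of all spots upwards and in 1.11% downwards. The called spots were chosen on these mice, so their separation is a description.

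**Figure D2:**
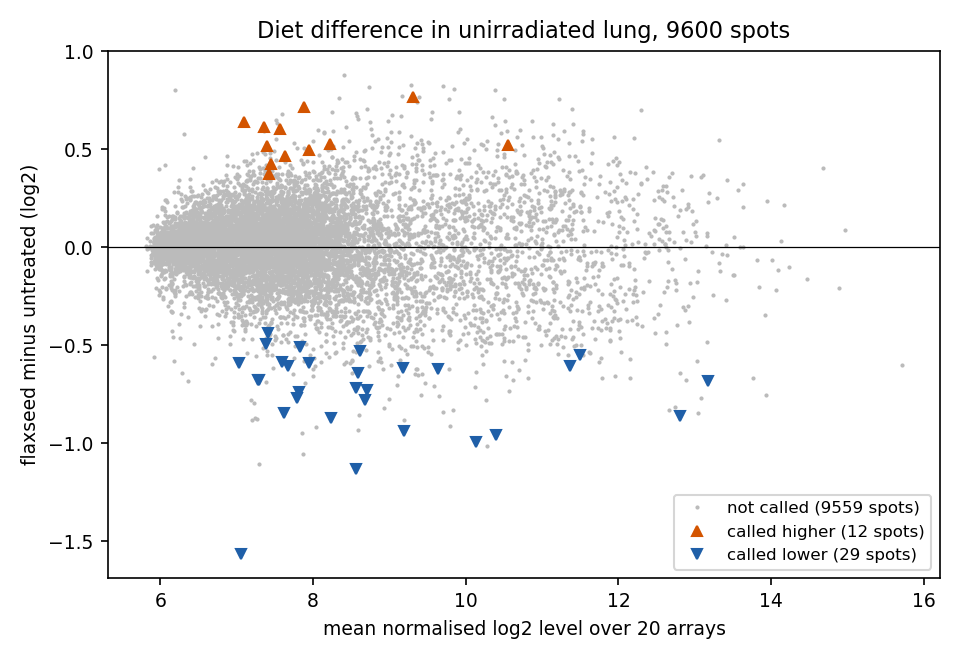
Flaxseed minus untreated difference of each of 9600 spots on the log2 scale against its mean normalised log2 level over 20 arrays; triangles mark spots called at an adjusted p under 0.05 (limma). The 12 called increases lie between 0.37 and 0.77, and the 29 called decreases reach -1.57.

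The 2 lower and 2 higher spots with the smallest p are given in full. The spot gene0020 had log2 levels of 7.98, 7.59, 7.90, 7.69 and 8.25 in untreated replicates 1 to 5, and 5.87, 6.01, 6.51, 6.57 and 6.62 in flaxseed replicates 1 to 5. The groups did not overlap, and the nearest mice were 0.97 apart. Its level fell by 1.57 on the log2 scale (SE 0.154, limma adjusted p = 2.34e-05), a 2.96-fold decrease. In untreated lungs it was 2.84 to 10.6 times as bright as its local background, and on flaxseed 0.82 to 3.36 times. Flaxseed replicates 1 and 2 were the dimmest, at or near background level. In replicate 1 the spot was below its background, so the size of the decrease depended on how low signals were treated, from -4.42 on the authors' table to -0.75 with an offset of 200. The decrease was called in all 10 fits that left out 1 untreated or flaxseed mouse and in all 17 other settings.

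A decrease on a bright spot was seen in gene7977, whose mean level exceeded that of 91.5% of the spots. Its log2 levels were 10.73, 10.37, 10.56, 10.73 and 10.71 in untreated replicates 1 to 5, and 9.89, 9.93, 9.41, 9.31 and 9.76 in flaxseed replicates 1 to 5. Every flaxseed mouse lay below every untreated mouse, with a gap of 0.44. The difference was -0.96 (SE 0.142, limma adjusted p = 0.00681), a 1.94-fold decrease. Signals were 22.2 to 32.5 times the local background on flaxseed and 34.2 to 57.9 times in untreated lungs, so both groups were far above background. The difference ranged from -1.29 to -0.81 over 17 other settings, of which the fit to the untreated and flaxseed arrays alone missed the threshold (limma adjusted p = 0.0520).

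Among the increases, gene3400 had log2 levels of 7.22, 7.05, 7.30, 6.95 and 6.95 in untreated replicates 1 to 5, and 8.04, 7.62, 7.61, 7.57 and 7.69 in flaxseed replicates 1 to 5. The groups did not overlap, and flaxseed replicate 1 was the highest mouse. The increase was 0.61 (SE 0.106, limma adjusted p = 0.0169), or 1.53-fold. It was 0.53 to 0.67 when 1 mouse of either group was left out, and all 10 of those fits called it (limma adjusted p from 0.0161 to 0.0483). Signals were 6.97 to 8.85 times background on flaxseed and 4.02 to 5.60 times in untreated lungs. The call was lost with brightness as a covariate, where the difference was 0.62 (limma adjusted p = 0.0513), and with the untreated and flaxseed arrays alone (limma adjusted p = 0.0842).

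The smaller increase of gene6080 rested on a narrow spread between mice. Its log2 levels were 7.71, 7.68, 7.57, 7.78 and 7.82 in untreated replicates 1 to 5, and 8.23, 8.33, 8.02, 8.04 and 8.06 in flaxseed replicates 1 to 5, with no overlap. The difference was 0.43 (SE 0.076, limma adjusted p = 0.0179), or 1.34-fold. Only 9 of 17 other settings called it, with differences from 0.26 to 0.57, and the call was also lost without untreated replicate 1 (limma adjusted p = 0.0627) or flaxseed replicate 1 (limma adjusted p = 0.0582). Spots adjacent to gene6080 were also higher on flaxseed, by a mean of 0.20, where 95% of spots had adjacent spots with a mean below 0.19. For gene3400, gene0020 and gene7977 the adjacent means were 0.03, -0.01 and -0.01. Over all 12 spots called higher the median of the adjacent means was 0.12, beside -0.01 over the 29 called lower and 0.01 over all spots. With the median of each block of 25 spots subtracted on each array, the increase of gene6080 was 0.34 (limma adjusted p = 0.0932). With the median at each place within runs of 50 spot numbers subtracted instead, it was 0.38 and still called (limma adjusted p = 0.0422), and with both subtracted it was 0.29 (limma adjusted p = 0.178).

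**Figure D3:**
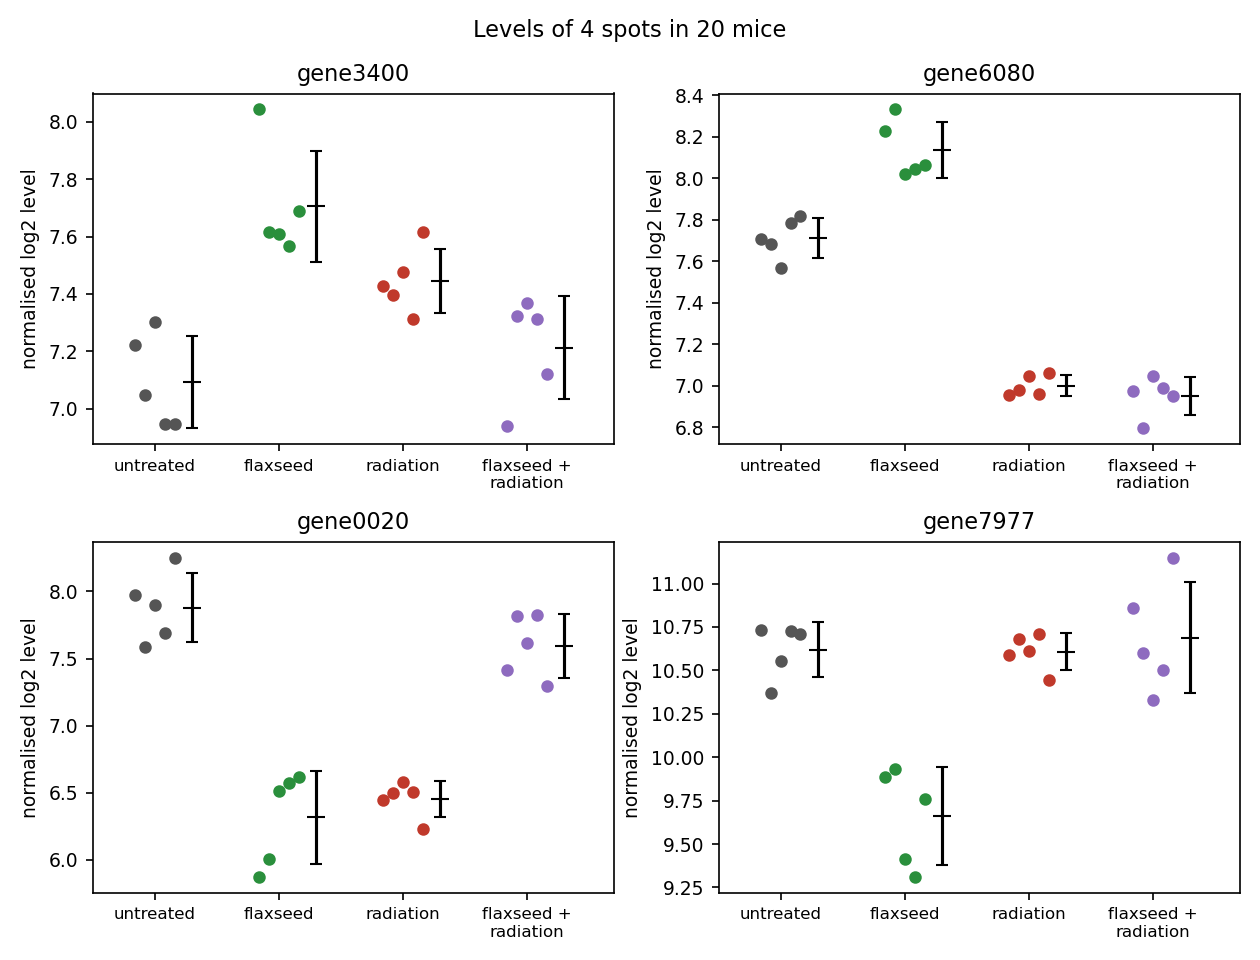
Normalised log2 levels of the 2 higher and 2 lower spots with the smallest p in all 20 mice, by treatment group; points are mice in replicate order and bars are the mean ± SD of 5 mice. In each spot the 5 flaxseed mice lie beyond the 5 untreated mice.

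The called decreases were unevenly placed on the array. In the files the spots follow the order of a grid of 80 rows and 120 columns made of blocks of 25 spots, a layout read from their order and not stated in the sources used here. Counting each spot's place within successive runs of 50 numbers, which is 1 position in every other block, 11 of the 29 lower spots stood at place 31, and 0 of the 12 higher ones. Each place holds 192 spots, or 2% of the array, and no other place held more than 4 lower spots. At place 31, 35.4% of spots had an unadjusted p under 0.05, against 6.77% to 17.7% at the 49 other places. Of these, 56 were lower and 12 higher on flaxseed. Over the 192 spots, 114 had a negative difference, the median was -0.04 and the 5th percentile was -0.68, where the 5th percentile of all spots was -0.36. All 11 called spots there were numbered 3031 or above, as 17 of the 18 called lower at other places were numbered above 3000. The numbers run from 1 to 9600, so most spots of the array, and most of those called higher, were also numbered above 3000. Their mean log2 level was 7.96 to 8.15 in untreated and 7.05 to 7.64 in flaxseed mice, without overlap, but these mice chose them. The same spots had a mean of 7.47 to 8.13 in irradiated mice and 7.91 to 8.16 in mice given both treatments. The lowest of these, radiation replicate 2 at 7.47, lay within the flaxseed range, which is 1 array and covers only the 11 called spots. Over all 192 spots of place 31 the mean was 7.16 to 7.34 on flaxseed and 7.32 to 7.38 in untreated mice, so these ranges overlapped. It was 7.30 to 7.43 in irradiated mice and 7.36 to 7.43 in mice given both treatments. In the comparison of mice given both treatments with irradiated mice, place 31 had 7.29% of spots at an unadjusted p under 0.05, close to the 7.47% of all spots.

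With the place 31 spots left out of the fit, 18 spots were called, 8 higher and 10 lower. With each array's median at each place subtracted, 35 were called, 11 higher and 24 lower, 30 of them among the 41. Differences also varied along the array. In bands of 600 spot numbers the median difference was 0.05 in the first band (0.02 to 0.07 with 1 mouse of either group left out) and -0.12 in the last. Without flaxseed replicate 3 the last was -0.07, and without any other mouse of these groups it was -0.14 to -0.08. The last 3 bands, with 1800 spots, held 14 of the 29 lower spots and 0 of the 12 higher ones. With each block's median subtracted on each array, 88 spots were called, 28 higher and 60 lower, including 31 of the 41. The decreases of gene0020 and gene7977 and the increase of gene3400 were called in each of these settings. None of these 3 spots stood at place 31. The spot gene0020 stood at place 20, which held 4 called decreases, the most outside place 31. At place 27, where gene7977 stood, 17.7% of spots had an unadjusted p under 0.05 (limma), the highest share outside place 31.

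**Figure D4:**
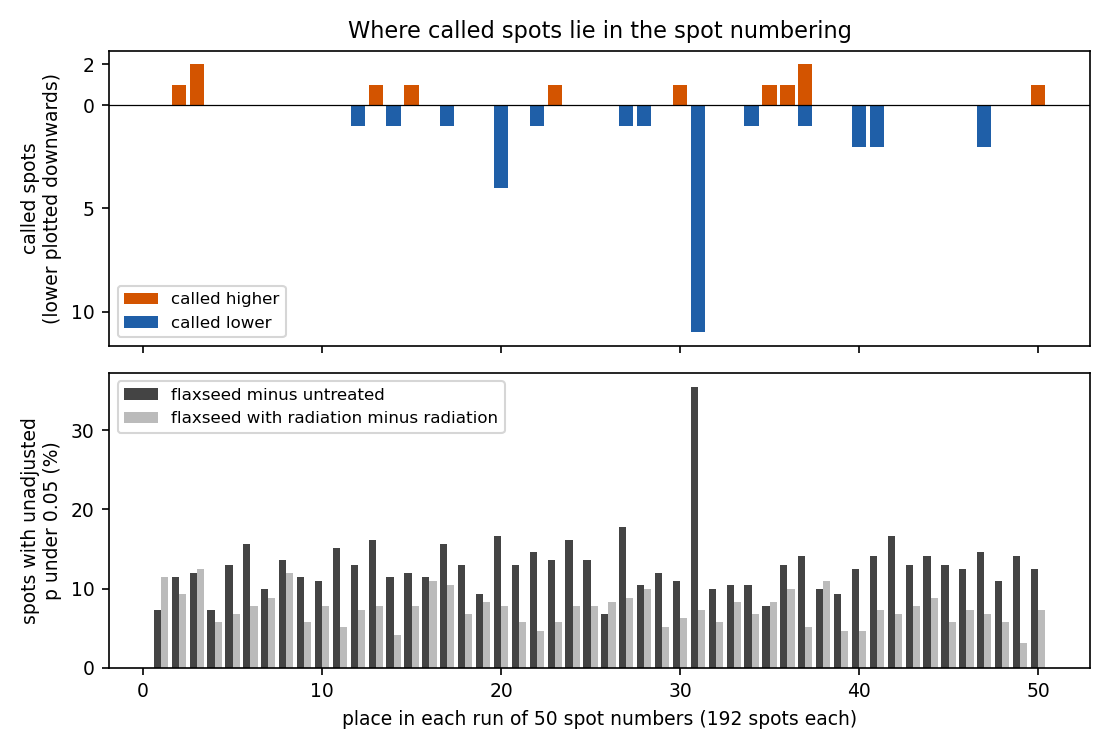
Called spots (top, adjusted p under 0.05, limma) and the percent of spots with an unadjusted p under 0.05 (bottom) by place within successive runs of 50 spot numbers, 192 spots at each place. Place 31 holds 11 of the 29 called decreases and 35.4% of its spots have an unadjusted p under 0.05, against 7.29% in the comparison of irradiated mice.

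Whether the diet difference was the same after radiation was examined on the other 10 mice. Mice given both treatments and irradiated mice share no array with the groups above. Of the 29 spots lower on flaxseed alone, 7 were lower and 22 higher in mice given both treatments than in irradiated mice, with a median difference of 0.12. As 11 of the 29 stood at place 31, they are not 29 independent cases. The mean level of these 11 was 7.89 ± 0.27 after radiation and 8.05 ± 0.09 after both treatments (SD, n = 5). For the 18 at other places it was 9.53 ± 0.07 and 9.68 ± 0.09 (SD, n = 5). Of the 12 spots higher on flaxseed alone, 2 were higher and 10 lower, with a median of -0.06. Over all spots 50.4% had a positive difference in irradiated mice, and the median was 0.00. None of the 41 spots had an unadjusted p under 0.05 in the same direction in irradiated mice, a count of 0 beside 1 called in the opposite direction (gene0020, the only spot called in that comparison, or 0.0104% of all spots) and 7 at an unadjusted p under 0.05 in the opposite direction, gene0020 included (limma). Over all spots, 717 (7.47%) had an unadjusted p under 0.05 there.

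**Figure D5:**
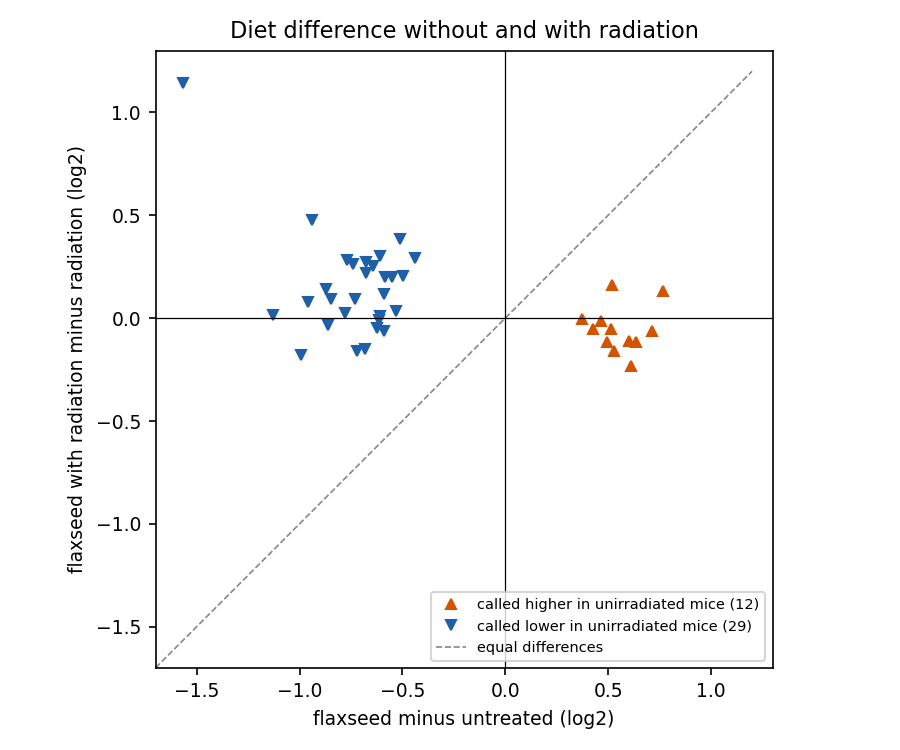
The 41 called spots by their flaxseed minus untreated difference (horizontal, log2) and by their difference between mice given both treatments and irradiated mice (vertical, log2); the dashed line marks equal differences. The vertical values lie between -0.23 and 1.14, and 22 of the 29 spots lower without radiation are above 0. Of these 29 spots, 11 stand at place 31.

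The difference between the diet effects was tested as the interaction of diet and radiation. It was called for 11 of 9600 spots, or 0.115%, and 9 of these were among the 41 called for the diet alone, 8 lower and 1 higher. This test reuses the flaxseed and untreated arrays, so that overlap is partly built in. The named spots were chosen on the same arrays, so their interactions are partly built in too. The interaction was called for 4 spots when untreated replicate 1 or 4 or radiation replicate 2 was left out, and for 5 when untreated replicate 3 or 5 or replicate 5 of the doubly treated mice was. It was called for 6 when flaxseed replicate 2 or doubly treated replicate 3 or 4 was left out, for 2 when radiation replicate 5 or doubly treated replicate 1 was, and for 35 when flaxseed replicate 5 was. At an unadjusted p under 0.05 it held 1280 spots, or 13.3%.

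In gene0020 the irradiated mice had levels of 6.44, 6.50, 6.58, 6.51 and 6.23, and mice given both treatments had 7.42, 7.82, 7.62, 7.83 and 7.30. The order of the diets was thus turned, with a difference of 1.14 (SE 0.154, limma adjusted p = 0.00344) and an interaction of 2.71 (SE 0.217, limma adjusted p = 7.04e-07). The interaction of gene0020 was called in all 20 fits without 1 mouse and in 16 of 16 other settings. The levels of gene7977 were 10.61 ± 0.11 after radiation and 10.69 ± 0.32 after both treatments (SD, n = 5). Both lay near the untreated mean of 10.62, and the flaxseed mean of 9.66 stood alone. The difference of 0.08 in irradiated mice did not pass the threshold (SE 0.142, limma adjusted p = 0.929), and the interaction was 1.04 (SE 0.201, limma adjusted p = 0.0442). That call was lost in 14 of 20 fits without 1 mouse, being kept when untreated replicate 2, flaxseed replicate 1, 2 or 5, radiation replicate 4 or doubly treated replicate 3 was the one left out, and in 7 of 16 other settings, with interactions of 0.92 to 1.58 over both kinds of fit. For gene3400 the means were 7.45 ± 0.11 after radiation and 7.21 ± 0.18 after both treatments (SD, n = 5), a difference of -0.23 (SE 0.106, limma adjusted p = 0.641). Its interaction was -0.85 (SE 0.150, limma adjusted p = 0.0322). It was not called when untreated replicate 4 or 5, radiation replicate 2 or 5, or doubly treated replicate 1 or 5 was left out, nor in 2 of 16 other settings. Both irradiated groups were low in gene6080, at 7.00 ± 0.05 and 6.95 ± 0.09 (SD, n = 5), and its interaction of -0.48 missed the threshold (SE 0.107, limma adjusted p = 0.0718).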

How the data were processed

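The deposited array files hold the median signal and the median local background of each spot as linear intensity values that the authors did not normalise, per the file headers. The authors' deposited table of the series holds intensity values too. Of its values other than the constant 0.002, 100% equalled signal minus background divided by the array median (tolerance 1e-04). No source used here names the image software. Background was corrected with normexp (offset 50), and the log2 signals were quantile normalised between arrays. The limma 3.58.1 fit in R 4.3.3 had 1 coefficient for each of 4 groups of 5 arrays, with Benjamini-Hochberg adjustment over 9600 spots. Called means an adjusted p under 0.05. The offset understates changes of dim spots. Fits that left out 1 mouse kept the normalised values of the others. For the 4 array measures, exact permutation tests (two-sided) were adjusted together. The comparison, lists and tests were chosen with earlier results of these data known. Named spots are the 2 higher and 2 lower called spots with the smallest p. The gene and marker lists prepared for named genes were not used, since the spots carry none. The alternatives on place and block were chosen after seeing the data. On simulated data for 9600 spots, in which spots above the dimmest 25% were changed in the flaxseed group, 55% of 1.5-fold and 91% of 2-fold changes were recovered for flaxseed minus untreated, with 6 calls among unchanged spots. The interaction test found 18% and 59% of them, and 3 unchanged spots. The simulated noise was independent between spots, without the place and band patterns of the real arrays. These rates therefore do not cover calls that follow such patterns. Recovery of the same fold changes in signal before the offset was added was not tested. The number of arrays limits the precision.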

Additional observations from a re-analysis of the deposited data

Results flagged for a closer look

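Within groups of 5 mice, 24 sets of values were examined for a mouse far from the rest, and chance flags about 1 in 20 such sets. Correlations between arrays, lowest for replicate 4 within the flaxseed group, were not among these sets. Untreated replicate 1 stood apart in array brightness, with a median background-subtracted signal of 177 where the nearest untreated array had 111. The same array had the widest interquartile range of log2 signals, at 1.77 beside 1.61. Flaxseed replicate 1 was far above its group in gene3400, at a log2 level of 8.04 beside 7.69. Without it the increase of gene3400 was still called, as given with its values. The diet difference differed between unirradiated and irradiated mice in 3 named spots, by the limma interaction test: gene0020 (2.71), gene7977 (1.04) and gene3400 (-0.85). Leaving out 1 mouse ended that call in 0, 14 and 6 of 20 fits in the same order. These spots were chosen on the flaxseed minus untreated difference, which is part of the interaction, so the calls are partly built in.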

How the results depend on the processing

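The 41 spots called for flaxseed against untreated became 10 with plain background subtraction, 108 with 75th percentile scaling, 62 with cyclic loess, 76 and 65 with the filters on mean level and on signal over background, 103 on the authors' table, 26 with brightness as a covariate and 1 with these groups alone in the fit. Leaving out 1 mouse gave 5 to 103. Of the 41, 5 were called in all 10 fits without an untreated or flaxseed mouse (gene0020, gene7977, gene3400 and 2 further lower spots), and 1, gene0020, in every other planned setting. Of the alternatives chosen after seeing the data, leaving out place 31 gave 18, subtracting block medians 88, and subtracting place and block medians together 77. The 11 interaction calls became 6 with plain subtraction or an offset of 200, 30 with 75th percentile scaling, 73 on the authors' table, 4 with brightness as a covariate, 4 without place 31, 31 with block medians and 24 with place and block medians subtracted. Leaving out 1 mouse gave 2 to 35. The cause of these moves was not tested. Leaving out 1 mouse moved the difference in median background-subtracted signal to 46.1 to 65.6, in local background to 3.39 to 5.81, in the interquartile range to 0.0474 to 0.101 and in the percent of spots above background to -0.119 to 0.0172, which turned positive without untreated replicate 4. No named spot changed direction in any setting. No paired analysis was possible because the mice carry separate numbers in each group. Dim spots limit what can be seen, with 0 calls in the dimmest 2400 spots, of which 133 were at an unadjusted p under 0.05 (limma).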
